A study of Mus musculus with 6 samples.

Results

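The miR-17-92 cluster is a group of miRNAs cut from a single primary transcript, and its members were followed here in heart muscle of mice sampled 0 h or 6 d after death. The members are all rows of the deposited files whose names begin with mmu-miR-17-, 18a-, 19a-, 19b-, 20a- or 92a-. This rule uses no measured value and found 10 of the 984 mature miRNAs, namely mmu-miR-17-5p, mmu-miR-17-3p, mmu-miR-18a-5p, mmu-miR-18a-3p, mmu-miR-19a-3p, mmu-miR-19b-3p, mmu-miR-20a-5p, mmu-miR-20a-3p, mmu-miR-92a-3p and mmu-miR-92a-1-5p, written below without the species prefix. The rule found no row for the 5p arms of miR-19a and miR-19b-1. The study took post-mortem interval, the time between death and sampling, as its only variable, with 3 small RNA libraries at each interval. The labels give no strain, age, sex or treatment and do not say whether libraries came from separate animals, so a p-value here reflects no more than library-to-library spread, which may be technical.

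A miRNA is cut from a hairpin precursor as a duplex of a 5p and a 3p arm, and the arm loaded into an Argonaute protein pairs with target mRNAs mainly through its seed, bases 2 to 8. The cluster's transcript is a known target of the transcription factor Myc, and its miRNAs are known for promoting proliferation and survival, in the heart most of all in growing cardiomyocytes. Members of the miR-17 and miR-18 families repress cell cycle inhibitors and TGF-β signalling genes, and miR-92a is known in endothelium as an inhibitor of vessel growth.

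In RefSeq's annotation of GRCm38.p6 the 6 hairpins (Mir17, Mir18, Mir19a, Mir20a, Mir19b-1 and Mir92-1, in that order) lie on the plus strand of chromosome 14 from 115043671 to 115044506, a stretch of 836 bases. GENCODE M21 places all 6 inside exon 2 of the 2 exons of the long non-coding RNA gene Mir17hg (chromosome 14, 115042879 to 115046727, GRCm38). The build used for the deposited files is not given in the sources used here. All 10 rows matched a RefSeq mature sequence by name. The 6 main arms are shown because their seeds decide which members can act on the same targets. Capitals mark the seed.
miR-17-5p: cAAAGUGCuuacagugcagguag
miR-20a-5p: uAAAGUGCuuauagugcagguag
miR-18a-5p: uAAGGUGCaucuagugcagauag
miR-19a-3p: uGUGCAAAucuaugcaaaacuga
miR-19b-3p: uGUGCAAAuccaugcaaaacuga
miR-92a-3p: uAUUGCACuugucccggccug

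These arms fall into 4 seed families, with miR-17-5p and miR-20a-5p in the miR-17 family, miR-18a-5p in the miR-18 family, both miR-19 arms in the miR-19 family and miR-92a-3p in the miR-92 family. Mature miR-19b-3p and miR-92a-3p are each also encoded by a second copy on chromosome X, in the paralogous miR-106a-363 cluster, so the reads of those rows cannot be assigned to either cluster. Other rows have close relatives on chromosome X that differ at 1 or 2 bases, shown because a read with errors at those bases could be counted for the wrong row.
miR-106a-5p: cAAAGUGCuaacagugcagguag
miR-20b-5p: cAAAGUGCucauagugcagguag
miR-18b-5p: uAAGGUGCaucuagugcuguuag
Counted from 1 at the 5′ end of the first-named miRNA, miR-17-5p and miR-106a-5p differ at 1 base (U10A), and so do miR-19a-3p and miR-19b-3p (U11C). For miR-20a-5p and miR-20b-5p the differences are U1C and U10C, and for miR-18a-5p and miR-18b-5p they are A18U and A20U. How such reads were assigned by the submitters is not given, so values of these rows are uncertain to that extent.

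The libraries held 4468547 to 7906435 miRNA reads at 0 h and 617052 to 1889540 at 6 d, so depth differed with the interval. Levels are given as normalised CPM, reads per 1000000 miRNA reads divided by a normalisation factor. The factor was recovered from the deposited values of 5 libraries, while that of 0 h replicate 1, deposited as raw counts, was derived by assuming that the factors multiply to 1. They are relative to the other miRNAs of a library, and fewer cells of a type and less RNA per cell cannot be told apart in such bulk samples. The 4 cardiomyocyte miRNAs had reads in all 6 libraries, with miR-1a-3p at 110064 to 532712 normalised CPM. Of these 4, miR-133a-3p was called higher at 6 d (log2 fold change 1.43, limma adjusted p = 0.0069), and miR-208a-3p (-1.49, limma adjusted p = 0.024) and miR-499-5p (-1.48, limma adjusted p = 0.013) were called lower. Over all miRNAs tested, limma called 16.0% higher and 21.9% lower. At 6 d the summed level of 7 epithelial miRNAs was also higher (1408 to 2579, against 139 to 439 at 0 h), as was the level of skeletal muscle miR-206-3p (685 to 1440, against 8.34 to 15.3). Of the 7 epithelial miRNAs limma called 6 higher and 0 lower. The remaining miR-203-3p was not called (log2 fold change -0.26, limma adjusted p = 0.72). The liver miRNA miR-122-5p was called higher at 6 d too (log2 fold change 3.42, limma adjusted p = 0.0095), from 702, 668 and 1406 normalised CPM at 0 h. It was uneven among the 6 d libraries, at 2086 in replicate 1, 23460 in replicate 2 and 16716 in replicate 3.

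The cluster was a minor part of the myocardial miRNAs at both intervals. The 10 rows together held 0.0546%, 0.0610% and 0.0466% of the miRNA reads in the 0 h libraries and 0.161%, 0.0918% and 0.147% in the 6 d libraries. All 3 shares at 6 d lay above all 3 at 0 h (exact two-sided permutation p = 0.1, the lowest value this design can reach, and 0.133 when adjusted for 4 measures of the sum). On the normalised scale the sum was 594, 802 and 525 CPM at 0 h and 1934, 850 and 820 at 6 d, a mean of 640.5 ± 144.2 against 1201 ± 635 (SD, n = 3 each, exact permutation p = 0.1). Replicate 1 of 6 d stood far above the other libraries, and without it the difference of the means fell from 561 to 195 normalised CPM. Without miR-19b-3p and miR-92a-3p, the rows that chromosome X also encodes, the normalised sums overlapped (362, 508 and 352 at 0 h, 1401, 393 and 430 at 6 d, exact permutation p = 0.5). As a share of all miRNA reads these rows did not overlap, with 0.0333%, 0.0387% and 0.0312% at 0 h and 0.116%, 0.0424% and 0.0773% at 6 d (exact permutation p = 0.1, adjusted p = 0.133), so this comparison turns on the scaling.

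At 0 h the order of the levels was miR-20a-5p, miR-92a-3p, miR-17-5p, miR-19b-3p and miR-19a-3p, followed by miR-17-3p and both miR-18a arms at a few normalised CPM. The main arms are of 21 to 23 bases, so no length correction was made. Among neighbours in this order, miR-17-5p stood above miR-19b-3p, and miR-19a-3p above miR-17-3p, in ranges that do not overlap at 0 h. The ranges of all other neighbours down to miR-18a-3p overlapped. Within each 0 h library, however, miR-20a-5p was above miR-92a-3p (log2 ratio of reads 0.36, 0.53 and 0.52). MiR-17-5p was below miR-92a-3p in each (log2 ratio -0.73, -0.50 and -0.55). By mean level at 0 h miR-20a-5p was number 92 of the 984 miRNAs and miR-92a-3p number 109. At 6 d miR-92a-3p was number 74.

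**Figure D1:**
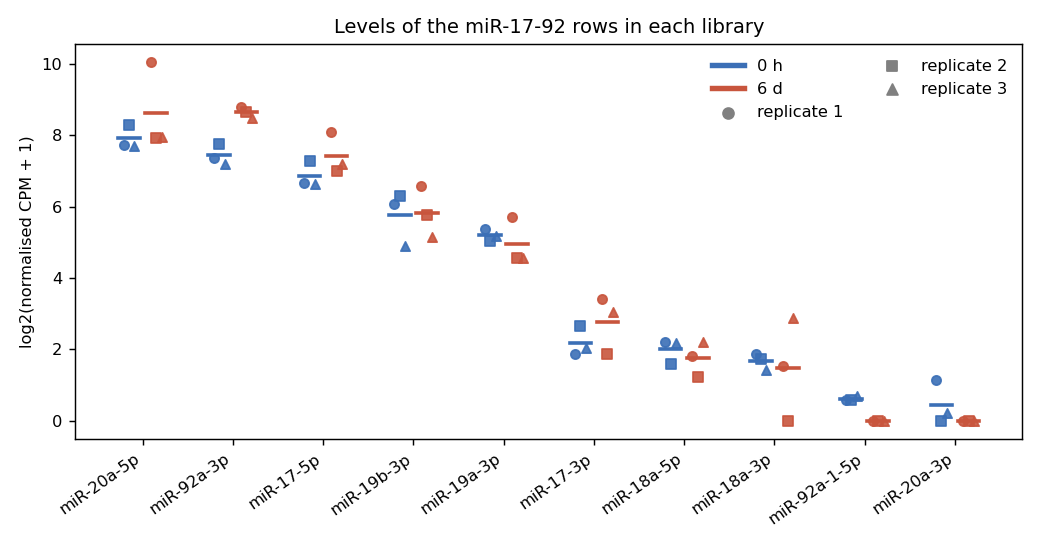
Level of each of the 10 rows, as log2(normalised CPM + 1), in every library, with 0 h in blue and 6 d in red, symbols for replicates and a bar for the mean of 3. For miR-92a-3p all 6 d points lie above all 0 h points, while for miR-20a-5p replicate 1 of 6 d (1064 normalised CPM) lies apart from the other 5 libraries (208 to 313).

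Of the 10 rows, 8 reached 1 normalised CPM in 3 or more libraries and were tested with limma on log2(value + 1). The call was a Benjamini-Hochberg adjusted p under 0.05 over all 470 tested miRNAs. At 6 d 1 of the 8 was called higher and 0 lower, where 37.9% of all tested miRNAs were called, 16.0% higher and 21.9% lower. The split over all miRNAs, 75 higher and 103 lower, was 90 and 84 with RLE size factors and 83 and 40 with library totals alone, with which the median of all tested miRNAs was 0.02 and not -0.33. The called row was miR-92a-3p. The median log2 fold change was 0.32 over the 8 rows and -0.33 over all tested miRNAs. The edgeR quasi-likelihood test on the recovered reads also called 1 of its 7 tested rows higher and 0 lower, against 43.0% of all miRNAs it tested, 22.3% higher and 20.7% lower. Without 0 h replicate 1 limma called 0 of the 8 rows, with 1 of them at an unadjusted p under 0.05. The median of the members was not steady over the settings run. It ranged from -0.12 without 6 d replicate 1 (all miRNAs -0.45) to 0.77 with edgeR (all miRNAs -0.19). With DESeq2, over 10 rows, it lay below the median of all miRNAs (0.43 against 0.52), and in every other setting above it.

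MiR-92a-3p, the last hairpin of the cluster, stood at 165, 216 and 145 normalised CPM at 0 h and at 439, 404 and 356 at 6 d. On this scale the 6 d libraries were close to each other and all above the 0 h libraries. Groups that did not overlap were seen for 50.6% of all tested miRNAs, 19.8% higher and 30.9% lower. In CPM without the normalisation factors (plain CPM), miR-92a-3p stood at 152, 165 and 129 at 0 h. At 6 d miR-92a-3p was wider spread on that scale, at 365, 436 and 639, and still above every 0 h library. Its log2 fold change was 1.20 ± 0.31 (SE, n = 3 each, 95% confidence interval 0.51 to 1.89, limma adjusted p = 0.0133), a 2.29-fold rise, and lay 1.53 above the median of all tested miRNAs. By edgeR the rise was 1.35 on the log2 scale (adjusted p = 0.0080). Without 0 h replicate 1 the log2 fold change was 1.16 and no longer called (limma adjusted p = 0.061). Over all alternatives run, the adjusted p ranged from 8.6e-05 to 0.061.

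The mature sequence of miR-92a-3p cannot show which of its loci gave these reads. Its 5p arm from chromosome 14, miR-92a-1-5p, had 2, 3 and 4 reads at 0 h and 0 in every 6 d library. At the pooled 6 d depth 3 reads equal 0.936 plain CPM, and the exact 95% upper limit of a count of 0 is 1.15. Both lie above the 0.457 pooled over 0 h (95% exact interval 0.209 to 0.868, counting error only). A fall of this arm was therefore not detectable at this depth. The rows that only the miR-106a-363 cluster encodes summed to 11.4, 9.32 and 10.5 normalised CPM at 0 h and 156, 49.0 and 98.4 at 6 d. The group means of this sum differed by 90.7 normalised CPM, beside 224 for miR-92a-3p. The levels of these other rows do not measure how much miR-92a-3p its chromosome X copy gave, and the part of that copy was not tested.

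MiR-92a-3p is known from red blood cells and endothelium, so markers of blood and vessels are given beside it. Over these lists limma called 1 of 5 red blood cell, 0 of 5 leukocyte and 1 of 2 endothelial miRNAs, beside 37.9% of all tested miRNAs. Among 5 red blood cell miRNAs miR-451a rose and 0 fell, with a median log2 fold change of -0.27 and a summed level of 34442 to 45230 normalised CPM at 0 h and 70315 to 114787 at 6 d. In this list miR-486a-5p and miR-486b-5p had nearly equal levels in every library (11997 and 12010 normalised CPM in 0 h replicate 1). The sum may therefore hold the same reads more than once. The median is the value of miR-486b-5p, so its sign rests on these near-equal rows. Of the 2 endothelial miRNAs miR-126a-3p fell, and their sum was 56921 to 88648 at 0 h and 25279 to 35076 at 6 d. The 5 leukocyte miRNAs summed to 471 to 627 and 655 to 1164, with 0 called by limma, 3 at an unadjusted p under 0.05, and 2 called higher by edgeR. Each marker of these lists had reads in all 6 libraries, and their part in the change of miR-92a-3p was not tested.

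MiR-20a-5p, the most abundant member at 0 h, is the miR-17 family arm of the fourth hairpin. It stood at 212, 313 and 208 normalised CPM at 0 h and at 1064, 241 and 245 at 6 d. On this scale only replicate 1 of 6 d lay above the 0 h range, and the other 6 d libraries lay within it. In plain CPM, reads per 1000000 without the factors, the levels were 195, 238 and 185 at 0 h and 885, 260 and 439 at 6 d, and every 6 d library lay above every 0 h library. The log2 fold change was 0.73 ± 0.56 (SE, n = 3 each, 95% confidence interval -0.53 to 1.98, limma adjusted p = 0.33), and without 6 d replicate 1 it was 0.016. With library totals alone as the scale it was 1.18 and still not called (limma adjusted p = 0.106). Its 3p arm had 5, 0 and 1 reads at 0 h and 0 at 6 d, which is not informative at the 6 d depth.

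MiR-17-5p shares the seed of miR-20a-5p and its known targets, among them cell cycle and TGF-β pathway genes. Its levels were 99.6, 153 and 98.9 normalised CPM at 0 h and 271, 126 and 146 at 6 d. On this scale the groups overlapped, with 6 d replicate 1 the highest library. In plain CPM they did not, at 91.5, 116 and 87.8 at 0 h and 225, 136 and 263 at 6 d, with 6 d replicate 3 the highest. The log2 fold change was 0.57 ± 0.38 (SE, n = 3 each, 95% confidence interval -0.27 to 1.42, limma adjusted p = 0.26), 0.24 without 6 d replicate 1, and 1.03 with library totals alone (limma adjusted p = 0.0947). The other arm, miR-17-3p, had 11, 32 and 20 reads in the 0 h libraries and 15, 2 and 8 in the 6 d libraries, with a log2 fold change of 0.58 (95% confidence interval -0.55 to 1.71). The 2 arms of miR-17, compared as log2(5p/3p) of their reads, a measure free of the scaling, gave 5.09, 4.80 and 4.93 at 0 h and 4.74, 5.0 and 4.18 at 6 d. It changed by -0.30 ± 0.44 (SE, limma adjusted p = 0.59 over 116 precursors, of which 38.8% were called).

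Neither of the miR-19 arms was called. MiR-19a-3p stood at 40.2, 31.9 and 35.4 normalised CPM at 0 h and at 51.6, 22.5 and 22.6 at 6 d. Replicate 1 of 6 d was above all 0 h libraries and the other 6 d libraries were below them. Its log2 fold change was -0.25 ± 0.41 (SE, n = 3 each, 95% confidence interval -1.17 to 0.66), and 0.19 with library totals alone as the scale. MiR-19b-3p stood at 66.7, 77.5 and 28.7 at 0 h and at 94.2, 52.9 and 34.3 at 6 d, wide and overlapping ranges, with a log2 fold change of 0.066 ± 0.49 (95% confidence interval -1.03 to 1.16).

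The miR-18a arms were close to the limit of detection. MiR-18a-5p had 15, 12 and 23 reads in the 0 h libraries and 4, 1 and 4 in the 6 d libraries, and miR-18a-3p had 11, 14 and 11 and then 3, 0 and 7. With so few reads at 6 d the 95% confidence intervals of the log2 fold change ran from -1.23 to 0.74 and from -1.68 to 1.26. The log2 ratio of the miR-18a arms changed by -0.19 ± 0.67 (SE, limma adjusted p = 0.83).

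**Figure D2:**
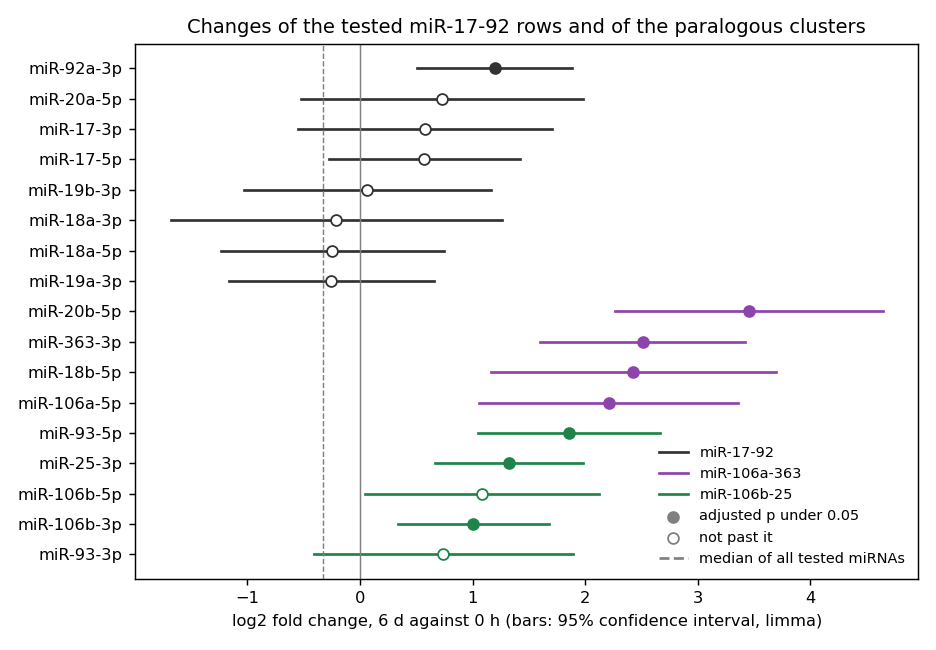
Log2 fold change from 0 h to 6 d with its 95% confidence interval (limma, 3 libraries each) for the 8 tested miR-17-92 rows and 9 tested rows of the paralogous clusters. Filled points passed an adjusted p of 0.05, and the dashed line is the median of all tested miRNAs (-0.33). Among the miR-17-92 rows the interval of miR-92a-3p is the one that lies above 0.

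The rows can be compared within a library, where scaling plays no part. In these shares and in the ratios below, reads of miR-19b-3p and miR-92a-3p may come in part from chromosome X and not from the cluster's transcript. The 3 most abundant rows held similar shares in the 0 h libraries. There miR-20a-5p had 35.7% to 39.6% of the members' reads, miR-92a-3p 27.0% to 27.8% and miR-17-5p 16.8% to 19.1%. The miR-19 shares varied more at 0 h and are given below. At 6 d the shares of the main rows differed between libraries. In replicate 1 miR-20a-5p held 55.0% and miR-92a-3p 22.7%, whereas in replicates 2 and 3 miR-20a-5p held 28.3% and 29.8% and miR-92a-3p 47.5% and 43.3%. The mean share of miR-92a-3p was thus 27.4% ± 0.42 (SD, n = 3) at 0 h against 37.9% ± 13.3 (SD, n = 3) at 6 d (exact permutation p = 0.4). With miR-19b-3p and miR-92a-3p left out of the total, the difference in the mean share of miR-17-5p was -0.14 percentage points, against -2.68 with them. For miR-20a-5p it was 4.92, against -0.39. The library with the low miR-92a-3p share is also the one with the lowest miR-122-5p level at 6 d, given above, and whether these are connected was not tested.

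The member whose share differed most evenly was miR-19a-3p, with 6.77%, 3.98% and 6.73% of the members' reads at 0 h and 2.67%, 2.65% and 2.75% at 6 d. All 6 d shares were below all 0 h shares (exact permutation p = 0.1, adjusted over the 10 rows p = 0.4). The shares of miR-19b-3p were 11.2%, 9.66% and 5.46% at 0 h and 4.87%, 6.23% and 4.18% at 6 d, and overlapped.

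**Figure D3:**
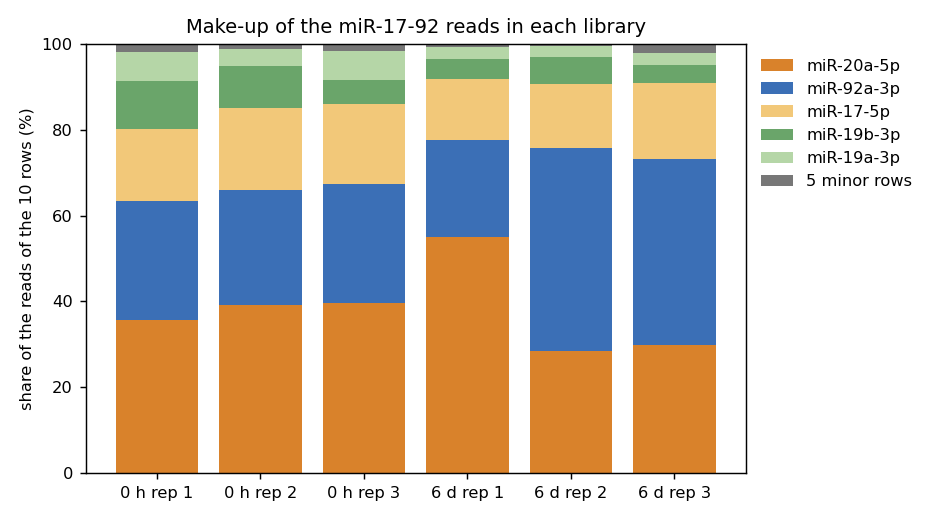
Share of each row in the reads of the 10 rows (percent, stacked to 100) in each of the 6 libraries. In the 0 h bars miR-20a-5p takes 35.7% to 39.6% and miR-19b-3p 5.46% to 11.2%, whereas at 6 d miR-20a-5p (orange) fills 55.0% of the bar of replicate 1 and 28.3% and 29.8% of the bars of replicates 2 and 3.

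Log2 ratios between the 6 main arms, 15 pairs in all, tested whether members changed unequally. In 3 pairs (20%) the 6 d and 0 h libraries did not overlap, against 49.1% of all pairs of tested miRNAs, and all 3 included miR-19a-3p. The log2 ratio of miR-19a-3p to miR-92a-3p was -2.03, -2.75 and -2.03 at 0 h and -3.07, -4.09 and -3.93 at 6 d, a difference of -1.42. Its ratio to miR-20a-5p differed by -0.95, and the ratio of miR-17-5p to miR-19a-3p by 0.80. The exact permutation p was 0.1 for each, the smallest possible, and 0.5 after adjustment over the 15 pairs. The log2 ratio of miR-17-5p to miR-92a-3p differed by -0.62 with overlapping libraries (exact permutation p = 0.2), so the rise of miR-92a-3p was not shown to differ from the change of miR-17-5p.

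The paralogous clusters carry the same seed families. Of the tested rows that only miR-106a-363 encodes, miR-20b-5p, miR-363-3p and miR-106a-5p rose, and 0 fell. MiR-18b-5p was also called higher, but it passed the filter on low values only through its 6 d libraries, which fixed its direction. Of the tested rows of miR-106b-25 3 of 5 rose and 0 fell (median log2 fold change 1.08). By edgeR 3 of 3 and 4 of 4 rose. Over all miRNAs tested, limma called 16.0% higher and edgeR 22.3%. These lists were chosen with earlier results known, so the counts are a description. MiR-20b-5p, a miR-17 family arm, stood at 2.43, 2.0 and 3.24 normalised CPM at 0 h and at 80.2, 18.5 and 35.2 at 6 d (log2 fold change 3.45 ± 0.53, SE, limma adjusted p = 0.0011). MiR-106a-5p, which differs from miR-17-5p at 1 base, stood at 1.70, 1.5 and 1.08 and then at 21.01, 5.29 and 9.02 (2.21 ± 0.51, limma adjusted p = 0.0088). In both, every 6 d library was above every 0 h library.

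The miR-17 family holds 6 rows, and the part of its reads that the 2 miR-17-92 members supplied was compared over libraries. It was 54.1%, 55.6% and 55.9% at 0 h and 45.4%, 29.9% and 31.4% at 6 d (exact permutation p = 0.1, adjusted over 4 families p = 0.2). Every 6 d library was below every 0 h library. The summed level of the family was 576, 839 and 550 normalised CPM at 0 h and 2940, 1226 and 1245 at 6 d. Most of the family's other reads belonged to miR-93-5p of the miR-106b-25 cluster, at 243, 343 and 225 and then 1442, 786 and 789 (log2 fold change 1.86 ± 0.36, limma adjusted p = 0.0035).

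In the miR-92 family, with 5 rows, the part supplied by miR-92a-3p was 5.51%, 5.69% and 4.66% at 0 h and 5.12%, 4.41% and 5.28% at 6 d, and overlapped. The family was dominated by miR-25-3p, at 2747, 3518 and 2867 normalised CPM at 0 h and 7967, 8682 and 6281 at 6 d (log2 fold change 1.32 ± 0.30, SE, limma adjusted p = 0.0076). MiR-92b-3p and miR-32-5p, encoded outside these clusters, had log2 fold changes of -0.16 and -0.17 and were not called. The miR-19 family consists of the 2 members alone, and the summed level was 107, 109 and 64.1 at 0 h and 146, 75.4 and 56.8 at 6 d. In the miR-18 family miR-18b-5p had 0, 0 and 1 reads in the 0 h libraries and 15, 1 and 7 in the 6 d libraries, so miR-18a-5p supplied 100%, 100% and 95.8% and then 21.1%, 50% and 36.4% of few reads.

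**Figure D4:**
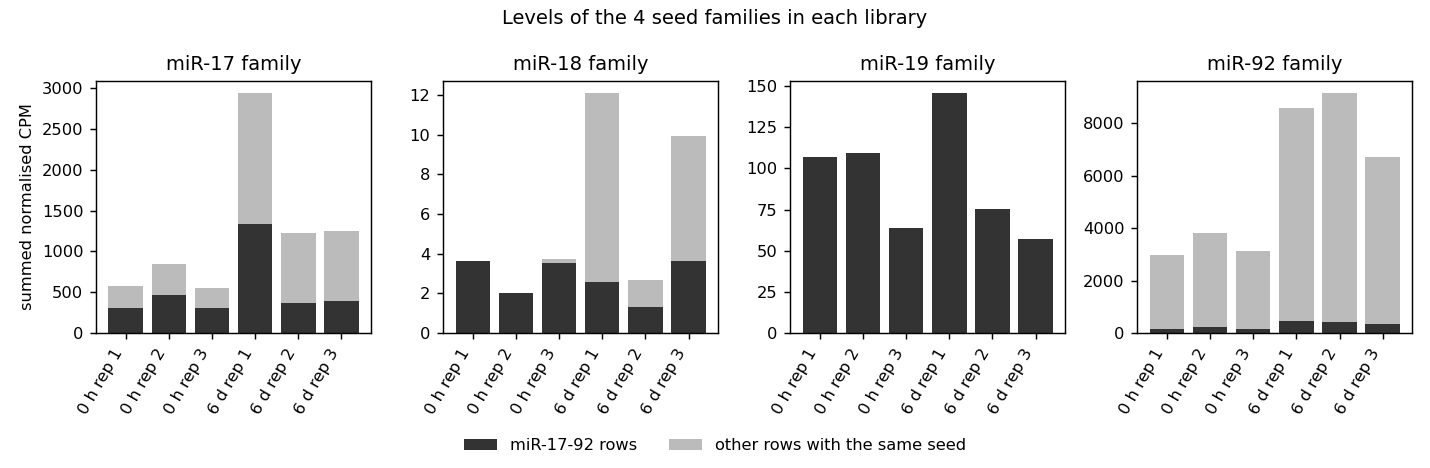
Summed level of each seed family in each library (normalised CPM, a separate axis from 0 in each panel), with the miR-17-92 rows dark and other rows with the same seed grey. In the miR-17 family the dark part is 54.1% to 55.9% of the reads at 0 h and 29.9% to 45.4% at 6 d, and in the miR-92 family it is near 5% at both intervals.

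Outside the cluster, the miRNAs whose levels ran most alike with the mean log2 level of the 8 tested rows over the 6 libraries were sought among 133 other miRNAs with a mean of at least 100 normalised CPM. The highest Pearson r was 0.83 for miR-30b-5p, followed by miR-103-3p (0.81), miR-144-5p (0.79), miR-26b-5p (0.74) and miR-142a-3p (0.73). All of them had their highest level in replicate 1 of 6 d, as the members did on average. For miR-30b-5p that level was 1045 normalised CPM, and its other libraries ranged from 397 to 701. These correlations rest on 6 libraries and are a description. Within each library all miRNAs share its depth and scaling.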

How the data were processed

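The 6 small RNA libraries came from mouse heart muscle, 3 per post-mortem interval. Per the labels' protocols, Trizol RNA and a NEBNext small RNA kit were used. The tools listed, without their roles, per the submitters' processing notes are STAR 2.5.3a, cutadapt 2.8, Trimmomatic 0.39 and FastQC. For 0 h replicate 1 the deposited values are raw counts of reads, while the other 5 deposited files hold log2 values, log2(x + 1) of scaled reads, as the values show. All 2692 values that could be tested were whole multiples of 1 step per library within the rounding of 0.0005 on the log2 scale, so reads could be recovered. The counts of 0 h replicate 1 were put on the same scale with a factor of 0.919, derived by setting the product of all 6 library factors to 1 and not stated by the authors.

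The test across 470 of 984 miRNAs was limma 3.58.1 (trended prior, robust) on log2(value + 1), for values of at least 1 in at least 3 libraries. This scale understates the change of low miRNAs. The alternatives were edgeR 4.0.16, DESeq2 1.42.0, other scalings and filters, thinning, summed near-identical miRNAs, a replicate block and the omission of each library. A floor of 3 reads equals 0.463 to 0.730 normalised CPM at 0 h and 1.91 to 3.97 at 6 d. The floors and the exact interval of pooled reads include only counting error. Replicate pairs differed beyond sampling noise (chi-square per degree of freedom 216 or more). Arm ratios had 1 read added to each arm. The steps were tested on simulated data.

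Named miRNAs are all members, the rows of the paralogous clusters and of the same seeds, and the 5 miRNAs most alike. The marker lists are of cardiomyocytes, red blood cells, leukocytes, endothelium, skeletal muscle, epithelium and liver. The members and lists were chosen with earlier results of these data known.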

Additional observations from a re-analysis of the deposited data

How the results depend on the processing

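No call of a member changed its sign in any setting run, and miR-92a-3p was called higher in each except without 0 h replicate 1 (log2 fold change 1.07 to 1.36 with 1 library left out, up to 1.65 over all settings). With 1 library left out 0 to 1 members and 114 to 179 miRNAs were called, 114 without 0 h replicate 1. The shares of 3 to 5 members did not overlap then, against 2 with all libraries, and 3 to 8 of the 15 pairs, 8 without 6 d replicate 1. Leaving out a library can remove an overlap but never create it, so these counts of groups that do not overlap could not fall. The 2 shares with all libraries were those of miR-19a-3p and miR-92a-1-5p, the latter with 2, 3 and 4 reads at 0 h and 0 at 6 d. The cause of the differences in the numbers called was not tested. Uncalled log2 fold changes near 0 changed sign and stayed uncalled, and the cause was not tested. Scaled by library totals alone, miR-18a-5p was at 0.11, miR-18a-3p at 0.14 and miR-19a-3p at 0.19. MiR-18a-3p was at 0.018 with a pseudocount of 5 and 0.57 with DESeq2, and miR-19a-3p at 0.081 with DESeq2 and 0.40 after thinning. Summed with miR-18b-5p, miR-18a-5p was at 0.997, since miR-18b-5p had reads at 6 d. Leaving out each library in turn gave -0.47 to 0.020 for miR-18a-5p, -0.91 to 0.52 for miR-18a-3p and -0.37 to 0.41 for miR-19b-3p. The log2 arm ratio of miR-17 was 0.47 after thinning, and that of miR-18a -0.58 to 0.26 with 1 library left out.

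With the replicate block 195 miRNAs and 1 member were called. Deviations from the group means correlated between libraries of the same number at 0.068, 0.064 and 0.27. The labels give only a replicate number, and correlations among so few libraries cannot decide whether they were paired. No pairing is assumed. The highest correlation of 0 h replicate 1 was with 6 d replicate 2 (0.16). For 0 h replicate 2 and 0 h replicate 3 it was with the 6 d library of the same number (0.064 and 0.27). Depth limits the miR-18a, 20a-3p and 92a-1-5p rows, which had at most 7 reads in a 6 d library.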
